A study of Homo sapiens with 12 samples.

Results

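The deoxynucleotide synthesis enzymes described here are 8 genes, RRM1, RRM2, RRM2B, TYMS, DUT, DTYMK, TK1 and DCK, out of 14828 genes in the expression table. They were taken by gene symbol for what their proteins do, by a rule that uses no measured value, although earlier results of these data were known when the group was proposed, and each of the 8 was present and passed the filter on low values that left 14624 genes for testing. Ribonucleotide reductase removes an oxygen from ribonucleotides and so makes the building blocks of DNA, thymidylate synthase and its neighbours supply the nucleotide found in DNA alone, and the salvage kinases recycle deoxynucleosides from outside the pathway. In dividing cells the messages of several of these enzymes are made mostly around S phase, under transcription factors of the E2F family, while RRM2B is known as a p53-inducible subunit that serves resting and damaged cells.

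Expression was measured by strand-specific, poly(A)-selected RNA-seq in 22Rv1, a human prostate carcinoma cell line. The cells stably carried a lentiviral, doxycycline-inducible pTRIPZ vector, selected with puromycin, that encoded a nontargeting shRNA (shNT) or 1 of 2 shRNAs against CENPA (shCENPA1 and shCENPA2), the histone H3 variant of centromeres. By the study's methods knockdown was induced with doxycycline at 2 µg/ml for 72 h, and shNT cells were the control for each CENPA-targeted shRNA, so that both comparisons with shNT share the same control libraries. Each group had 2 libraries, each run in lanes 7 and 8, and the lanes of a library were averaged (n = 2 per group). Nothing in the sources used here says that the libraries of a group came from separate cultures, so p-values measure the spread between these libraries. For the linear fit (limma), the spread used for a gene also draws on that of the other genes tested.

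The 6 libraries held 79172294 to 133074655 reads on genes. Chi-square values per gene were 1.23 to 1.31 for lanes of the same library and 26.5 to 80.1 for libraries of the same group. CENPA, the targeted gene, stood at 2.46 and 2.18 log2 RPKM (the logarithm of reads scaled to gene length and library size) in shNT, 0.51 and 0.58 in shCENPA1 and -0.47 and -0.41 in shCENPA2. Its level was 70.9% lower with shCENPA1 and 85.3% lower with shCENPA2 than in shNT. Of the markers of prostate luminal epithelium 11 of 11 were in the table, with a summed level of 1020 to 1060 RPKM in shNT, 1010 to 1050 in shCENPA1 and 1040 to 1050 in shCENPA2, although KLK3, which encodes prostate-specific antigen, stood at only -2.17 to -0.48 log2 RPKM. Of the basal markers 0 of 3 were in the table. Of the stroma and blood markers 2 of 7 were, with a summed level of 1.09 to 1.2 RPKM in shNT, 1.5 to 1.6 in shCENPA1 and 1.3 to 1.63 in shCENPA2, where the second marker in the sum besides COL1A1, DCN, was called higher with both shRNAs, by limma, with 1.94 (adjusted p = 0.00271) and 1.48 (adjusted p = 0.0053) on the log2 scale. In shNT, DCN lay near the filter of -3, at -2.90 and -3.19 log2 RPKM, and it stood at -1.60 to -1.05 with knockdown. The part of stroma or blood RNA in the results was not tested.

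Most of the deoxynucleotide enzymes had lower mRNA levels after CENPA knockdown, and RRM2, TYMS and TK1 had lost the most. With shCENPA1, 5 of 8 members passed an adjusted p of 0.05 as lower (RRM1, RRM2, TYMS, DUT and TK1), where 4.45% of all genes tested did, and 0 passed as higher, where 2.69% of all genes did, from limma with Benjamini-Hochberg adjustment. With shCENPA2, 7 of 8 passed as lower, all but RRM2B, where 10.5% of all genes did, and 0 passed as higher, where 8.05% of all genes did. As higher, 0 members also passed with either shRNA at an unadjusted p under 0.05 or with limma's voom on the reads. A call, which also needed a log2 fold change beyond 1, was made for RRM2, TYMS and TK1 with shCENPA1, 3 of 8 against 1.83% of all genes called lower. The same 3 members were called with shCENPA2, against 4.45% of all genes, and 1.7% of all genes were called lower with both. The median log2 fold change over the 8 members was -0.56 with shCENPA1 and -0.79 with shCENPA2, while over all genes tested it was 0.003 and 0.012. Without shCENPA1 library 1 the members called with shCENPA1 numbered 1 of 8, and without shNT library 1 they numbered 2, because TYMS (-0.97 without shCENPA1 library 1) and TK1 (-0.93 and -0.94) then lay just inside the fold threshold. The members called with shCENPA1 also numbered 2 with lane 8 alone, with 1 added to RPKM and with median-centred libraries. In bulk RNA, fewer cells in S phase and less of a message in each cell cannot be told apart. From a separate cell cycle assay, the study reported that CENPA-depleted prostate cancer cells accumulated in G1. The part of that shift in the member values was not tested.

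**Figure D1:**
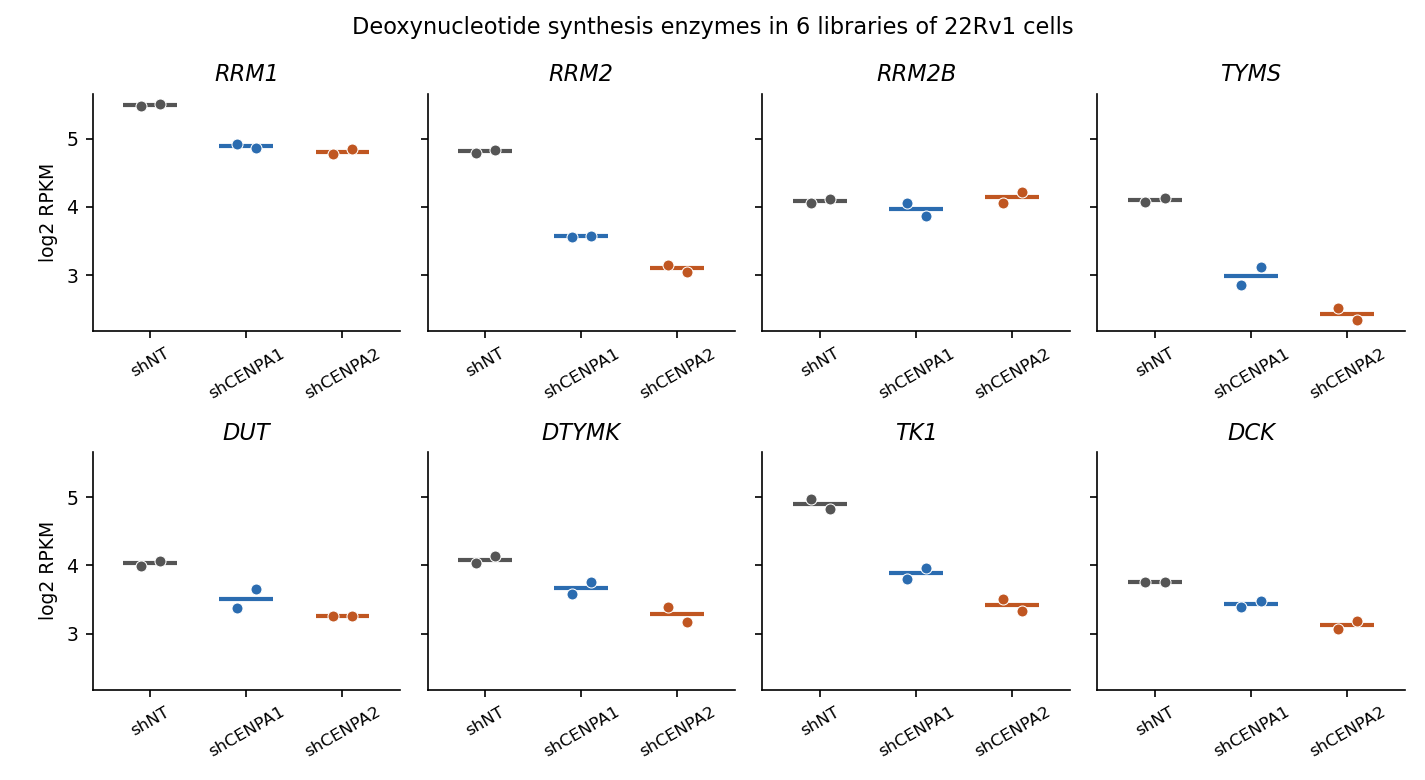
Level of each deoxynucleotide synthesis enzyme, as log2 RPKM on the vertical axis, in the 2 libraries (points) of shNT, shCENPA1 and shCENPA2, with the group mean as a bar. In 7 of the 8 panels the points step down from shNT to shCENPA1 to shCENPA2 without overlap, and RRM2B stays between 3.87 and 4.22. Of all genes tested, 8.43% showed this order without overlap.

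The stretch just before the transcription start is shown for the 3 members called with both shRNAs, since it is where factors that drive S-phase genes are known to bind. The sequences are the 150 bases before the RefSeq start site on GRCh38.p14, read 5′ to 3′ on the strand of the gene. Capitals mark a CCAAT box (CCAAT, or ATTGG where it lies on the other strand) or an E2F motif.
RRM2: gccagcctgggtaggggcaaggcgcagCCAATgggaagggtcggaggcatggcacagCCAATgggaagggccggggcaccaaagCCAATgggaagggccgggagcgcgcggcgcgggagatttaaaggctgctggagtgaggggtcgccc
TYMS: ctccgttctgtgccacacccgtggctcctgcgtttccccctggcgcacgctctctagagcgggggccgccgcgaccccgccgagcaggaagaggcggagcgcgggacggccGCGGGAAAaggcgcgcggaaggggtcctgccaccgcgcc
TK1: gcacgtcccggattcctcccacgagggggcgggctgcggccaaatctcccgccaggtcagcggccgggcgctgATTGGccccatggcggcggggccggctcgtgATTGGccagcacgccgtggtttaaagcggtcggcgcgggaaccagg
They lie at chr2:10122589-10122738 (plus strand), chr18:657503-657652 (plus strand) and chr17:78187053-78187202 (minus strand). RRM2 had CCAAT starting at positions -123, -93 and -66 from the start site, each followed by the same letters gggaaggg, and TK1 had it at -77 and -46, both on the opposite strand. TYMS had the E2F motif TTTCCCGC on the opposite strand at -39 and no CCAAT.

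Over the 250 bases before the start, 7 of the 8 members had a RefSeq window. CCAAT on either strand was found in 4 of these 7 (RRM1, RRM2, DTYMK and TK1), where 32.0% of 34941 promoter windows held it. An E2F motif (TTTCCCGC, TTTGGCGC, TTTCGCGC or TTTGCCGC, either strand) was found in 1, TYMS, against 2.77% of the windows. A CHR motif (TTTGAA or TTCGAA, either strand), named for cell cycle genes homology region, was found in 2, RRM1 and DTYMK, against 14.4%. DUT and DCK held none of these letters in the window scanned. Only the window nearest the canonical start site was scanned, although DUT had 4 RefSeq windows and RRM2 and TK1 had 2 each. For RRM1 the start site of that window lay 114 bases from the canonical one. Such matches describe the letters of a window and do not show that a factor binds there.

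Ribonucleotide reductase is built from the large catalytic subunit RRM1 and a small subunit, RRM2 or RRM2B, that carries the radical. In these data RRM1 and RRM2 fell with both shRNAs, RRM2 by the larger amount, and RRM2B did not pass the test with either. RRM1 (chromosome 11, 4094707 to 4138932, plus strand, 19 exons in the canonical transcript) stood at 5.47 and 5.50 log2 RPKM in shNT, 4.91 and 4.87 in shCENPA1 and 4.78 and 4.84 in shCENPA2. All 4 knockdown libraries lay below both shNT libraries. Its log2 fold change was -0.60 with shCENPA1 (95% interval -0.78 to -0.41, adjusted p = 0.00244 from limma with Benjamini-Hochberg adjustment) and -0.68 with shCENPA2 (-0.86 to -0.49, adjusted p = 0.000547), or 33.9% and 37.4% lower. Here and below, the 95% intervals are for each gene alone, without adjustment over the genes tested. Such an interval can leave out 0 where the adjusted p does not pass.

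RRM2 (chromosome 2, 10120698 to 10211725, plus strand, 10 exons) encodes the S-phase small subunit, which is degraded outside S phase. It stood at 4.79 and 4.83 log2 RPKM in shNT, 3.56 and 3.57 in shCENPA1 and 3.15 and 3.05 in shCENPA2, on 3648 to 14838 reads per library. The 3 groups were apart, and no library of one reached the next. The log2 fold change of RRM2 was -1.25 with shCENPA1 (-1.45 to -1.04, adjusted p = 0.000103 from limma) and -1.71 with shCENPA2 (-1.91 to -1.51, adjusted p = 6.3e-06), or 57.8% and 69.4% lower. These directions and calls held in each of the 21 alternative settings, with log2 fold changes of -1.27 to -1.18 and of -1.76 to -1.60.

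RRM2B, also called p53R2, lies on chromosome 8 on the minus strand, with 9 exons in the canonical transcript. It stood at 4.06 and 4.11 log2 RPKM in shNT, 4.05 and 3.87 in shCENPA1 and 4.06 and 4.22 in shCENPA2. The shCENPA1 libraries lay below the shNT libraries by less than their own spread, and the shCENPA2 libraries overlapped them. Its log2 fold change was -0.13 with shCENPA1 (-0.36 to 0.10, adjusted p = 0.519 from limma) and 0.05 with shCENPA2 (-0.18 to 0.28, adjusted p = 0.766), so that a fall of the size of that of RRM1 lay outside both intervals. Without shCENPA2 library 2 the second value was -0.03, on the other side of 0.

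RRM2B made up a larger share of the small subunit mRNA in the knockdown libraries. It was 37.6% and 37.8% of the RPKM of RRM2 and RRM2B together in shNT, 58.4% and 55.2% in shCENPA1 and 65.2% and 69.3% in shCENPA2. The mean share was 37.7% ± 0.15 (SD, n = 2) in shNT, 56.8% ± 2.2 in shCENPA1 and 67.2% ± 2.9 in shCENPA2. RRM2B was the less abundant small subunit message in both shNT libraries and the more abundant in all 4 knockdown libraries, a comparison of levels that rests on the gene lengths of 4955 bases for RRM2 and 5548 for RRM2B implied by the deposited values. In an exact two-sided permutation test each difference from shNT had p = 0.333, the smallest that 2 libraries against 2 allow.

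Set against the large subunit, RRM2 was lower and RRM2B higher in all 4 knockdown libraries than in both shNT libraries. RRM2 had 0.624 and 0.628 of the RPKM of RRM1 in shNT, 0.392 and 0.407 in shCENPA1 and 0.325 and 0.288 in shCENPA2. For RRM2B the ratio was 0.376 and 0.382 in shNT, 0.550 and 0.502 in shCENPA1 and 0.609 and 0.649 in shCENPA2. The sum of both small subunits over RRM1 had a mean of 1.01 in shNT, 0.926 in shCENPA1 and 0.935 in shCENPA2, and here too the knockdown libraries lay below both shNT libraries. The exact permutation p for each of these ratios was likewise 0.333.

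**Figure D2:**
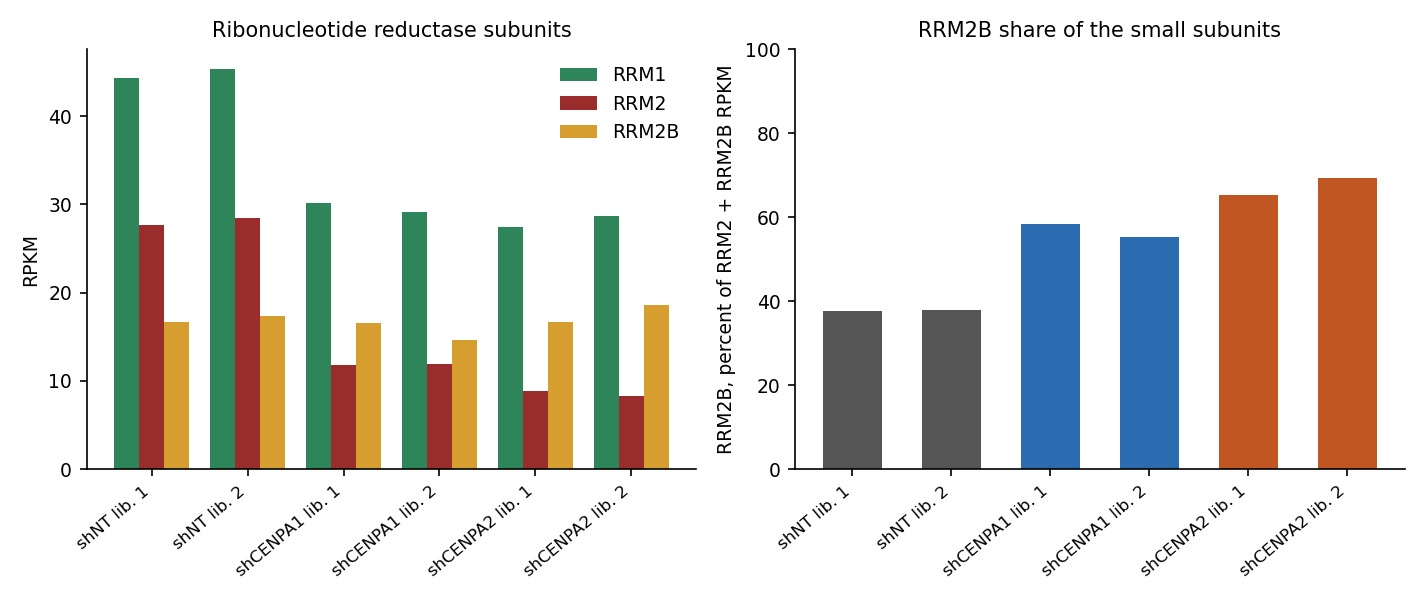
Left, RPKM of RRM1, RRM2 and RRM2B (bars from 0) in each of the 6 libraries; right, RRM2B as a percent of the RPKM of RRM2 and RRM2B together in the same libraries. RRM2 drops from 27.7 and 28.5 RPKM in shNT to between 8.27 and 11.9 with knockdown while RRM2B keeps to 14.6 to 18.6, and the RRM2B share climbs from 37.6% to as much as 69.3%.

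The thymidylate branch runs from DUT, which removes dUTP and yields dUMP, through thymidylate synthase (TYMS), which methylates dUMP to dTMP, to thymidylate kinase (DTYMK), which adds the next phosphate. All 3 fell with shCENPA2, and TYMS and DUT also fell with shCENPA1. TYMS (chromosome 18, 657653 to 673578, plus strand, 7 exons) stood at 4.08 and 4.12 log2 RPKM in shNT, 2.86 and 3.13 in shCENPA1 and 2.51 and 2.34 in shCENPA2. The 3 groups did not overlap. Its log2 fold change was -1.11 with shCENPA1 (-1.38 to -0.84, adjusted p = 0.000677 from limma) and -1.68 with shCENPA2 (-1.94 to -1.41, adjusted p = 2.69e-05), or 53.6% and 68.7% lower.

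TYMS shares 967 exon bases with ENOSF1 and 193 with the noncoding TYMSOS, both on the opposite strand, and the strand setting of the read counting was not given in the sources used here. By limma, ENOSF1 had log2 fold changes of -0.26 (adjusted p = 0.438) and -0.21 (adjusted p = 0.449). TYMSOS, on only 27 to 166 reads per library, was lower with both, by log2 fold changes of -1.86 (adjusted p = 0.0206) and -1.29 (adjusted p = 0.0473), and was looked at because of its position. TYMS itself had 2391 to 9255 reads and ENOSF1 had 3238 to 4781, so that ENOSF1 had fewer reads than TYMS in both shNT libraries and more in both shCENPA2 libraries and in shCENPA1 library 1. How far reads of these genes entered the TYMS value was not tested.

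DUT (chromosome 15, 48331011 to 48343373, plus strand, 7 exons) stood at 3.99 and 4.07 log2 RPKM in shNT, 3.37 and 3.65 in shCENPA1 and 3.25 and 3.26 in shCENPA2. The knockdown libraries lay below shNT, and the shCENPA1 libraries were the most spread. For DUT the log2 fold change was -0.52 with shCENPA1 (-0.77 to -0.27, adjusted p = 0.0226 from limma) and -0.77 with shCENPA2 (-1.02 to -0.52, adjusted p = 0.00138). The shCENPA1 difference no longer passed without shNT library 1 (adjusted p = 0.0854), shNT library 2 (0.195) or shCENPA1 library 1 (0.0852), or with limma run without a trend in the variance (0.0771).

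DTYMK (chromosome 2, 241675747 to 241686944, minus strand, 5 exons) stood at 4.03 and 4.13 log2 RPKM in shNT, 3.58 and 3.75 in shCENPA1 and 3.39 and 3.17 in shCENPA2. No knockdown library reached the shNT range. For DTYMK the log2 fold change was -0.80 with shCENPA2 (-1.05 to -0.55, adjusted p = 0.00112 from limma). With shCENPA1 it was -0.42 (-0.67 to -0.16) and just missed the threshold, at an adjusted p of 0.058. It passed in 6 of the 21 alternatives, and over all of them the adjusted p ran from 0.000495 to 0.437.

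The ratio of TYMS to DUT RPKM was lower with knockdown. It was 1.06 and 1.04 in shNT, 0.701 and 0.694 in shCENPA1 and 0.599 and 0.526 in shCENPA2, with all knockdown libraries below shNT and an exact permutation p of 0.333 for each shRNA. The level of DUT rests on a length of 7393 bases, the longest among the members.

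The salvage kinases were TK1 and DCK, and the former was called with both shRNAs. TK1, the cytosolic thymidine kinase that is made in S phase, had the second highest mean RPKM of the members in shNT, although RRM2 was slightly above it in shNT library 2. TK1 (chromosome 17, 78174091 to 78187233, minus strand, 7 exons) stood at 4.97 and 4.82 log2 RPKM in shNT, 3.80 and 3.96 in shCENPA1 and 3.50 and 3.33 in shCENPA2. The 3 groups did not overlap. Its log2 fold change was -1.01 with shCENPA1 (-1.25 to -0.77, adjusted p = 0.000578 from limma) and -1.48 with shCENPA2 (-1.72 to -1.24, adjusted p = 2.81e-05), or 50.5% and 64.2% lower.

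DCK, deoxycytidine kinase, which also activates nucleoside drugs such as cytarabine and gemcitabine, lies on chromosome 4 (70992538 to 71030914, plus strand, 7 exons). It stood at 3.76 and 3.75 log2 RPKM in shNT, 3.38 and 3.48 in shCENPA1 and 3.07 and 3.18 in shCENPA2. The 3 groups did not overlap, though the steps were small. For DCK the log2 fold change was -0.63 with shCENPA2 (-0.85 to -0.42, adjusted p = 0.00182 from limma) and -0.33 with shCENPA1 (-0.54 to -0.11, adjusted p = 0.0763, which did not pass). DCK shares 199 exon bases with MOB1B on the same strand, which had log2 fold changes of -0.02 (adjusted p = 0.93) and 0.14 (adjusted p = 0.402).

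The ratio of TK1 to DCK RPKM also was lower with knockdown. It was 2.31 and 2.10 in shNT, 1.34 and 1.40 in shCENPA1 and 1.35 and 1.11 in shCENPA2. The knockdown libraries lay below both shNT libraries, and the exact permutation p was 0.333 for each shRNA.

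The order of the members by level differed between the groups, with levels compared as RPKM, which scales each gene to lengths of 1861 bases (TK1) to 7393 (DUT). In shNT the order of the means was RRM1, TK1, RRM2, TYMS, RRM2B, DTYMK, DUT and DCK. RRM1 was the highest in every group, at 44.3 and 45.3 RPKM in shNT and 27.4 to 30.1 with knockdown. TK1 and RRM2 overlapped in shNT, as did the neighbours TYMS and RRM2B, RRM2B and DTYMK, and DTYMK and DUT, while DUT lay above DCK without overlap. RRM2 went from the third place in shNT to the fifth in shCENPA1 and the seventh in shCENPA2, TYMS from the fourth to the last in both, and RRM2B from the fifth to the second in both. With shCENPA1 the neighbours RRM2B and TK1, RRM2 and DUT, and DUT and DCK overlapped, and with shCENPA2 the neighbours TK1 and DTYMK, DTYMK and DUT, and DCK and RRM2 did.

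Between the CENPA-targeted shRNAs, 7 of the 8 members had both shCENPA2 libraries below both shCENPA1 libraries and these below both shNT libraries, an order that 8.43% of all genes tested showed. In the fit reported RRM2 passed the test of the difference itself, and the other members did not, with shCENPA2 minus shCENPA1 at -0.47 (-0.67 to -0.26, adjusted p = 0.0406 from limma), where 1.03% of all genes passed as lower. RRM2 did not pass in 10 of the 21 alternatives, among them the ones without either shNT library (adjusted p = 0.0948 and 0.0922), without either shCENPA1 library (0.112 and 0.228) and without shCENPA2 library 2 (0.14), and with the library number as a replicate block (0.0813). Which member passed also changed with the setting: with lane 8 alone and with voom it was TYMS (adjusted p = 0.0471 and 0.0422) and not RRM2 (0.0709 and 0.0594).

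In that fit the differences of the other members did not pass, although TYMS passed in 5 of the 21 alternatives, TK1 in 3 and DCK in 2. DUT and DTYMK passed in 1 each, and RRM2B, as higher, in 1. For TYMS the difference was -0.57 (-0.84 to -0.30, adjusted p = 0.0584 from limma), for TK1 -0.47 (-0.71 to -0.23, adjusted p = 0.078), for DTYMK -0.39 (-0.64 to -0.14, adjusted p = 0.157) and for DCK -0.30 (-0.52 to -0.09, adjusted p = 0.197). DUT had -0.25 (-0.51 to -0.00, adjusted p = 0.368) and RRM2B 0.18 (-0.05 to 0.41, adjusted p = 0.503). RRM1 was the closest to 0, at -0.08 (-0.27 to 0.11, adjusted p = 0.732). CENPA itself was lower with shCENPA2 than with shCENPA1 by a log2 difference of -0.98 (adjusted p = 0.0209), and its part in the member differences was not tested.

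**Figure D3:**
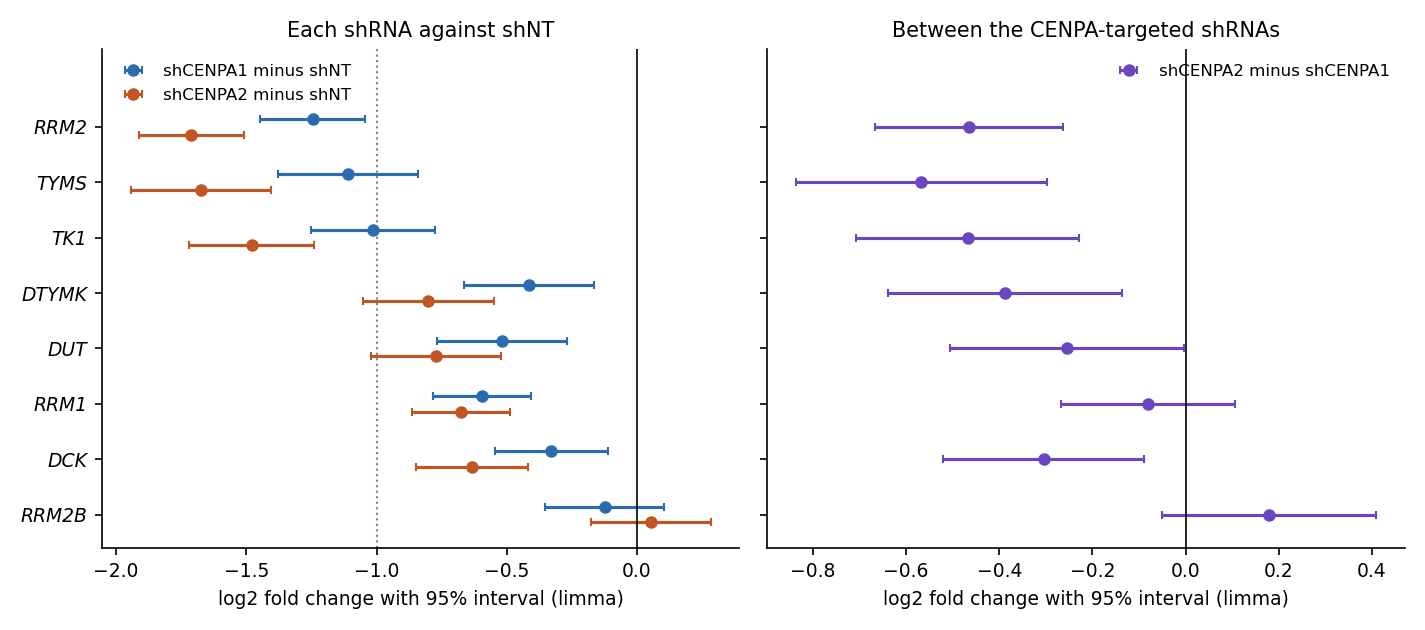
Left, log2 fold change of each member against shNT (points) with its 95% interval from limma, for shCENPA1 and shCENPA2, with the fold threshold of -1 as a dotted line; right, the difference between the CENPA-targeted shRNAs. RRM2, TYMS and TK1 lie past the dotted line with both shRNAs, from -1.01 to -1.71, and RRM2B lies near 0.

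Other genes of nucleotide metabolism passed in both directions. Over 71 measured genes of 72 in lists for the folate cycle, pyrimidine and purine synthesis, diphosphate kinases and electron donors, mitochondrial salvage and carriers, and breakdown, 5 passed as lower and 1 as higher with shCENPA1, and 13 as lower and 4 as higher with shCENPA2. Of all genes tested 4.45% were lower and 2.69% higher with shCENPA1, and 10.5% and 8.05% with shCENPA2. The median log2 fold change was -0.05 and -0.11, beside -0.56 and -0.79 for the members. The first pair of counts was 2 genes in all without shNT library 1 and 3 without shNT library 2 or either shCENPA1 library, against 6 with all libraries, and the second was 9 without either shNT library, against 17.

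The folate cycle supplies the methyl group for TYMS, and 2 of its 10 genes were lower and 1 higher with shCENPA1 (median -0.21), with 3 lower and 2 higher with shCENPA2 (median -0.37). By limma, GGH, which trims the glutamate tail of folates, fell by 0.98 (adjusted p = 0.00079) and 1.29 (adjusted p = 6.6e-05) on the log2 scale. SHMT2, the mitochondrial enzyme that loads one-carbon units from serine, rose, with log2 fold changes of 0.45 (adjusted p = 0.0255) and 0.57 (adjusted p = 0.00375). With shCENPA2, the cytosolic trifunctional enzyme MTHFD1 passed as lower (-0.52, adjusted p = 0.00575) and its mitochondrial relative MTHFD2 as higher (0.50, adjusted p = 0.00469). MTHFD1 and MTHFD2, like each gene in the next lists that is not among the largest changes, were named after their values were seen.

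Pyrimidine and purine synthesis feed ribonucleotide reductase. Beside the counts that follow, 4.45% of all genes tested were lower with shCENPA1 and 10.5% with shCENPA2, and 2.69% and 8.05% were higher. Of the 10 genes of pyrimidine synthesis 0 passed with shCENPA1 by limma (median -0.05), with 2 lower and 0 higher at an unadjusted p under 0.05 and 0 by voom, and 2 were lower with shCENPA2 (median -0.16). These were UCK2 (-0.46, adjusted p = 0.00654), a uridine and cytidine kinase, and CTPS1 (-0.35, adjusted p = 0.0378), which makes CTP. Of the 15 genes of purine synthesis 1 was lower with shCENPA1 (median -0.07) and 2 with shCENPA2 (median -0.08), PRPS2, which makes the ribose donor, among them with both, at -0.45 (adjusted p = 0.0373) and -0.85 (adjusted p = 0.000683). The other was PAICS (-0.55, adjusted p = 0.00238), an enzyme of the purine ring. Of the 10 diphosphate kinases and electron donors, which finish the triphosphates and reduce the reductase, 0 passed with shCENPA1 by limma (median 0.05). With shCENPA1, 3 were higher and 0 lower at an unadjusted p under 0.05, and 0 passed by voom. With shCENPA2 1 was higher (median 0.06), TXNRD1, the cytosolic thioredoxin reductase, at 0.39 (adjusted p = 0.0138). At an unadjusted p under 0.05, 3 were lower and 2 higher with shCENPA2, and by voom 0 were lower and 2 higher.

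Of 9 genes for mitochondrial salvage and carriers 1 was lower with each shRNA, the nucleoside transporter SLC29A1 (-0.48, adjusted p = 0.0201, and -0.84, adjusted p = 0.000447 from limma), with medians of 0.01 and -0.11. The mitochondrial kinases TK2 (0.01 and 0.11) and DGUOK (0.14 and 0.05), the counterparts of TK1 and DCK in that compartment, did not pass (adjusted p = 0.96 and 0.546 for TK2, 0.477 and 0.781 for DGUOK), and they were named for that role.

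Of 17 measured genes for breakdown and clearance 1 was lower with shCENPA1 (median 0.04), and 5 were lower and 1 higher with shCENPA2 (median -0.06). By limma, NUDT1, which removes oxidized purine triphosphates, fell with both, with log2 fold changes of -0.76 (adjusted p = 0.00703) and -1.05 (adjusted p = 0.000529). NT5E, a nucleotidase on the cell surface, fell with shCENPA2 (-1.22, adjusted p = 0.0143), on only 67 to 179 reads per library, and had -0.67 with shCENPA1 (adjusted p = 0.193). Also lower with shCENPA2 were the nucleotidase NT5C3A (-0.50) and PNP (-0.50), which splits purine nucleosides, and TYMP, which splits thymidine, was the higher one (0.64, adjusted p = 0.032). SAMHD1, which cleaves deoxynucleotide triphosphates and opposes the reductase, had -0.22 (adjusted p = 0.258) and 0.05 (adjusted p = 0.77) and did not pass, and it was named for that role.

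Among 13 regulators of the members, the E2F and RB family with ubiquitin ligase subunits and other factors, 5 were lower with shCENPA1 and 6 with shCENPA2, with medians of -0.26 and -0.29. By limma 0 of the 13 were higher with either, at an adjusted or unadjusted p under 0.05, and 0 by voom. Among all genes tested 4.45% were lower with shCENPA1 and 10.5% with shCENPA2, and 2.69% and 8.05% were higher. E2F1, an activator of S-phase genes, stood at 4.33 and 4.22 log2 RPKM in shNT, 3.16 and 3.29 in shCENPA1 and 3.08 and 2.66 in shCENPA2. Its log2 fold changes were -1.05 (adjusted p = 0.00189 from limma) and -1.41 (adjusted p = 0.000155). The atypical repressors E2F7 (-1.44, adjusted p = 0.00441, and -1.63, adjusted p = 0.00102) and E2F8 (-1.53, adjusted p = 0.000696, and -1.88, adjusted p = 8.2e-05) fell as well. E2F2, on 87 to 343 reads, fell with shCENPA2 (-1.73, adjusted p = 0.0078) and had -1.01 with shCENPA1 (adjusted p = 0.124). CCNF, whose ubiquitin ligase marks RRM2 protein for degradation, fell by 0.56 (adjusted p = 0.0337) and 0.58 (adjusted p = 0.014) on the log2 scale, and was named for this role.

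Genes of DNA replication, which uses deoxynucleotides, were mostly lower too. Of 17 genes of the MCM helicase and origin licensing, 11 were lower with shCENPA1 and 13 with shCENPA2 (medians -0.79 and -1.11). Of 36 genes of the replication fork, 27 and 31 were lower (medians -0.72 and -1.04), and by limma 0 were higher in either list with either shRNA, at an adjusted or unadjusted p under 0.05, and 0 by voom. Of 24 p53 targets, 2 were lower and 2 higher with shCENPA1, and 3 lower and 3 higher with shCENPA2 (medians -0.07 and -0.10). Beside them, RRM2B did not pass with either. For each of these lists, the shares over all genes tested were 4.45% lower and 2.69% higher with shCENPA1. With shCENPA2 they were 10.5% and 8.05%.

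**Figure D4:**
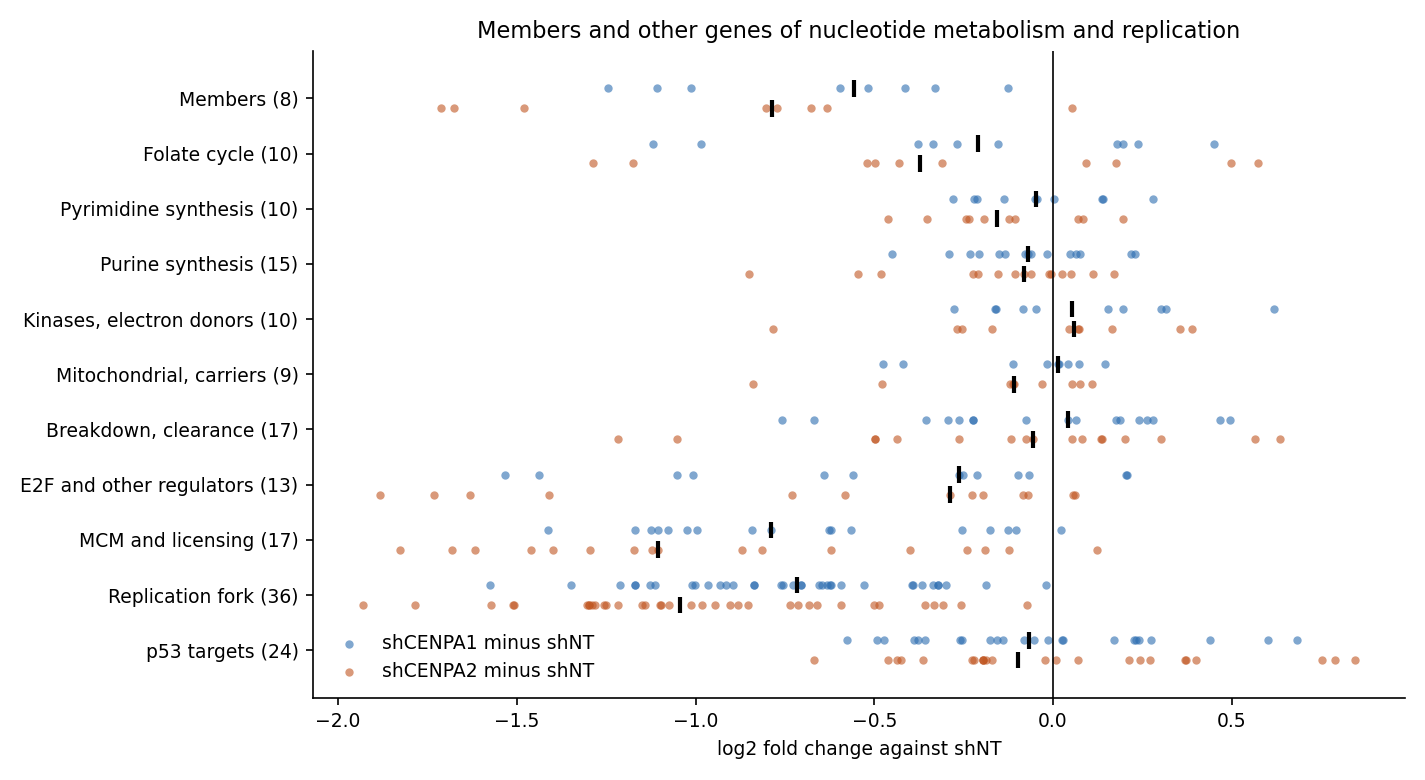
Log2 fold change against shNT of every tested gene (points) in the member list and in the lists of nucleotide metabolism, regulators, replication and p53 targets, for shCENPA1 and shCENPA2, with the median of each list as a black tick and the number of genes in brackets. The members, the MCM and the fork lists have medians between -1.11 and -0.56, and the lists of nucleotide metabolism have medians between -0.37 and 0.06.

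The genes whose profile over the 6 libraries was closest to that of a member, among 12042 genes with a mean of at least 0 log2 RPKM, were found by the root mean square difference of log2 RPKM centred on shNT. For RRM2 they were CKS2 (0.05), KIF11 (0.05) and BLM (0.05), a subunit of cyclin-dependent kinases, a mitotic kinesin and a helicase. For TYMS they were the histone chaperone ASF1B (0.06), UBE2C (0.06) and CDK1 (0.07), and for TK1 they were KIFC1 (0.07), CDCA5 (0.07) and CENPW (0.09). For RRM1 they were FADS1 (0.04), RAD18 (0.04) and TOPBP1 (0.04). RRM2B, with its flat profile, had KCTD9 (0.02), TM7SF3 (0.02) and ZHX1 (0.02).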

How the data were processed

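By the study's methods, reads were cleaned with TrimGalore, mapped by STAR to hg38 and assigned to genes by HTSeq, and edgeR was used for calling, with versions not given in the sources used here. The values that the authors deposited are log2 RPKM, 1 column for each of 12 runs, with 14828 genes, and 0 columns were left unused. The sample labels number the runs of a group as replicates, and the column names give the library and the lane. The depth was taken from whole reads, found for 14828 genes because the deposited log2 values move in steps of 1 read (largest distance from a whole read 2.7e-08). The values contain a prior count of 0.25 reads at the mean library size, which pulls the fold change of a gene with few reads towards 0.

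Both lanes of each library were averaged. Of the genes, 14624 reached a mean of -3 log2 RPKM and entered the fit with limma (version 3.58.1, R version 4.3.3; lmFit, eBayes with trend) over 6 libraries of 3 groups, with contrasts of group means, no covariate and Benjamini-Hochberg adjustment over the genes tested. A gene passed at an adjusted p under 0.05 and was called when its log2 fold change was also beyond 1. Ratios of RPKM were compared by an exact two-sided permutation test. The fit was tested on simulated data. Percent differences were taken from mean log2 values. Whether library numbers paired was checked from the correlation of their deviations, -0.145 to -0.064, and they were not treated as pairs. Intervals between libraries cover 2 libraries per group, which limits the precision more than the reads do.

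Members, gene lists and tests were chosen with earlier results of these data known. Besides the members and CENPA, the rule named pathway and regulator genes called with at least 1 shRNA, the 3 largest changes shared by both shRNAs in each direction, and the 3 nearest profiles of 5 members. Genes said to be named for a role, after their value or for their position were chosen outside this rule. Values of some genes in the lists, including 1 that the rule named, are not reported here. Gene positions come from GENCODE 44 (GRCh38, the assembly of hg38) and promoters from RefSeq on GRCh38.p14. The alternatives were each lane as a replicate, the same with the lane correlation estimated, single lanes, a replicate block, other filters, constants of 0.1 and 1 added to RPKM, median-centred and quantile-normalized libraries, no trend, fits of only the groups compared, voom (limma) from recovered reads and each library left out. A crossed block was added after seeing the data.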

Additional observations from a re-analysis of the deposited data

Results flagged for a closer look

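RRM2, the S-phase small subunit of ribonucleotide reductase, is listed because its response differed between the CENPA-targeted shRNAs by a test of the difference itself. The shCENPA2 minus shCENPA1 difference was -0.465 on the log2 scale, with 3.56 and 3.57 log2 RPKM in the shCENPA1 libraries and 3.15 and 3.05 in the shCENPA2 libraries (adjusted p = 0.0406 from limma with Benjamini-Hochberg adjustment). Over the 21 alternatives the difference ran from -0.52 to -0.41 and the adjusted p from 5.61e-06 to 0.228, and 10 of them did not pass. CENPA was also lower with shCENPA2 than with shCENPA1, by a log2 difference of -0.98, and the part of this difference in that of RRM2 was not tested.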

How the results depend on the processing

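Of 504 values for single members (8 genes, 3 comparisons, 21 alternatives), 468 kept their direction and side of the threshold, 14 no longer passed, 21 newly passed and 1 changed sign, RRM2B with shCENPA2, whose log2 fold change ran from -0.026 (without shCENPA2 library 2) to 0.132 (without shCENPA2 library 1). RRM1, RRM2, TYMS and TK1 passed as lower with both shRNAs in each alternative, while the members called with shCENPA1 numbered 1 to 3 with a library left out. Members passing between the CENPA-targeted shRNAs, 1 in the fit reported, numbered 7 with the lanes as replicates, 4 with their correlation estimated, 0 without the trend, 0 with only the groups compared and 0 to 1 with a library left out. The pathway genes that passed with shCENPA1, 6 in that fit, numbered 38 with the lanes as replicates, 16 with their correlation and 2 to 7 with a library left out. With shCENPA2, where 17 passed, they numbered 38 with the lanes as replicates and 9 to 17 with a library left out, and between the shRNAs, where 0 passed, they numbered 19 and 4 with the lanes. Lanes of a library are repeat runs, and the cause of the other changes was not tested.

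The deviations of libraries with the same number had correlations of -0.145 to -0.064 between groups. Whether such libraries shared a culture or a preparation was not tested. With the library number as a replicate block the members passing between the shRNAs numbered 0, and this block changed no other call of a member. With the crossed replicate block they numbered 3, and those passing with shCENPA1 numbered 6. The RRM2B share rose by 17.6 to 20.7 percentage points with shCENPA1 and by 27.5 to 31.6 with shCENPA2 when a library was left out. The lowest members rest on 1744 reads in a library, so counting is not the limit for them.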
